A study of Mus musculus with 30 samples.

Results

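Erythroid and heme synthesis genes are the genes that a red cell precursor uses to make heme, take up iron, build its membrane skeleton and mature. A fixed list of 33 symbols was looked up in the gene column of the bone marrow (BM) and adipose tissue macrophage (ATM) count tables, and 28 of the 33 were analysed in both tissues, among 13353 genes in BM and 17059 in ATMs. The alpha and beta globin genes *Hba-a1*, *Hba-a2*, *Hbb-bs* and *Hbb-bt* and the alpha-globin chaperone gene *Ahsp* were not analysed here. The 28 comprised 7 enzymes of heme synthesis, 3 importers for mitochondria and iron, 5 regulators, 8 membrane and blood group genes and 5 genes of late maturation.

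The study asked how obesity, a GLP-1R agonist and IL-17A blockade act on blood formation from cells carrying an activating *Shp2* mutation. RNA sequencing was done on whole BM cells and on ATMs, which are macrophages sorted by F4/80 from visceral fat, with 5 groups of 3 libraries in each tissue. By the protocol in the labels, which is the same for all libraries, recipients were irradiated with 700 and then 400 cGy on the day before they received equal numbers of CD45.2 BM cells of the genotype *Shp2E76K/+;LysM-Cre+* and CD45.1 Boy/J competitor cells. LysM-Cre acts in myeloid cells, and RNA of mutant and competitor cells was not separated.

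WT denotes lean C57BL/6 recipients in that protocol. For ATMs a figure legend of the study instead names *Ob/Ob* mice given mutant or WT donor cells. The donor of the ATM WT libraries is therefore uncertain, and on that reading the recipient is too. In ATMs a difference from WT cannot be assigned to the recipient alone. Nor can it in BM, since the labels give no vehicle or other treatment for WT recipients. Sex and group also cannot be told apart, as described below. The 4 other groups were *Ob/Ob* recipients, which lack leptin and become obese, on the C57BL/6J background, and were treated for 30 days from week 8 after transplantation. They received vehicle (Vehicle), the GLP-1R agonist beinaglutide at 3 mg/kg under the skin, an anti–IL-17A antibody at 200 µg per mouse into the abdominal cavity 3 times weekly, or both agents (Combo). Mice of both sexes were used. The labels give an age of about 12 to 14 weeks, while the study's methods give other ages for recipients and donors. The label age is not taken here as the age at sampling. The labels name 3 mice per group without tying a library to a mouse, and give no donor for single libraries, so the p-values measure the spread between these libraries, which may be technical in part.

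In erythroid maturation, an early precursor that depends on erythropoietin divides, fills with hemoglobin, shrinks and sheds its nucleus. Heme is built along a chain of enzymes that begins in the mitochondrion with the condensation of glycine and succinyl-CoA, passes through the cytosol, and ends in the mitochondrion, where ferrochelatase inserts iron. GATA1 and KLF1 are the transcription factors that switch on most genes of this program, and BM is its main site in the adult mouse.

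BM libraries ranged from 31086184 to 39925495 counts and ATM libraries from 24876074 to 45300263. Libraries of a group were far closer to each other in BM, with a biological coefficient of variation of 3.51%, than in ATMs, with 32.5%, and smaller differences passed the test in BM. In BM, the first WT library stood apart from the other WT libraries, with a chi-square per degree of freedom of 34.8 and 26.6 against them and 2.02 to 4.21 for every other pair of one group, and results that move with it are given with that library named. Granulocyte markers were abundant in every BM group. None of 11 monocyte and macrophage markers was at 0 in all libraries of an ATM group. At the depth of these libraries that says little about the purity of the sort, which was not tested. In ATM Vehicle these markers summed to 2514 to 2669 CPM (counts scaled to the library total), against 17802 to 18738 for 12 granulocyte markers. Their sum was also below that of the granulocyte markers in ATM Combo, and above it in ATM WT and with each single agent. The female transcript *Xist* averaged 1.58 normalized counts in WT BM, 6544 in Vehicle, 2.17 with the GLP-1R agonist, 98.4 with anti–IL-17A and 3610 in Combo. In ATMs *Xist* averaged 16.3 in WT, 1250 in Vehicle, 0 with the GLP-1R agonist, 13.5 with anti–IL-17A and 1129 in Combo. Vehicle and Combo were thus the groups with high *Xist* in both tissues, and sex and group cannot be told apart. *Alas2* and *Gata1* are on the X chromosome.

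Levels are given as normalized counts, which are counts over the effective (TMM-scaled) size of a library, brought back to the scale of counts with the mean effective size of the 15 libraries of that tissue. Differences are log2 fold changes from edgeR's quasi-likelihood test, and adjusted p-values are edgeR's unless limma voom is named. The Benjamini-Hochberg adjustment was over all genes of the tissue. For the difference between tissues it was over the genes in both tables. A gene passed the test at an adjusted p below 0.05, and was called when its absolute log2 fold change was also above 1. Per-library values follow in the order of library 1, 2 and 3, which has no meaning of its own. All treated groups were compared with the same 3 Vehicle libraries. In whole BM, fewer erythroid cells and less RNA per erythroid cell cannot be told apart.

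In BM, most erythroid genes were lowest in Vehicle and highest with the GLP-1R agonist. Vehicle had 6 of 28 members called lower than WT (10% of all genes) and 0 called higher (9.44%). The GLP-1R agonist had 14 called higher than Vehicle (7.6% of all genes), anti–IL-17A 6 (7.65%) and Combo 2 (6.58%). By the adjusted p alone, between 35.8% and 38.8% of all genes passed in each direction of these comparisons. In Combo, 26 of 28 members lay below the level reached with either agent alone, against 15.2% of all genes. All 28 passed the test for any difference among the 5 groups, as did 95.1% of all genes. *Xist* was high in Vehicle and Combo and far lower in WT and with either single agent. Differences of Vehicle or Combo from WT or from a single agent therefore cannot be told apart from sex.

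The first enzyme of the heme chain had the widest range of the 7. *Alas2*, the erythroid 5-aminolevulinate synthase, had normalized counts of 10719, 11207 and 11216 in WT, 5925, 5850 and 5774 in Vehicle, 18064, 17801 and 18113 with the GLP-1R agonist, 7437, 7509 and 7822 with anti–IL-17A and 4001, 4058 and 3981 in Combo. No groups overlapped, and Combo was the lowest. Relative to WT, the log2 fold change was −0.92 in Vehicle (SE 0.0261, adjusted p = 1.78e-29) and −1.46 in Combo (SE 0.0267, adjusted p = 8e-36). Relative to Vehicle it was 1.62 with the GLP-1R agonist (SE 0.0261, adjusted p = 1.95e-38), 0.38 with anti–IL-17A (adjusted p = 3.36e-16) and −0.54 in Combo (adjusted p = 5.6e-21). Of the exon bases of *Alas2*, 15.5% are shared with *Apex2* and *Mir3620*, and a read there was counted for each gene.

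*Fech*, which encodes the ferrochelatase of the last step, had normalized counts of 4726, 4842 and 4977 in WT, 3706, 3990 and 3781 in Vehicle, 10599, 10775 and 11097 with the GLP-1R agonist, 6987, 6978 and 6852 with anti–IL-17A and 5327, 4955 and 5280 in Combo. Vehicle was lowest and the GLP-1R agonist highest, and Combo overlapped WT. The difference from WT was −0.34 in Vehicle (adjusted p = 1.26e-12), and the difference from Vehicle was 1.50 with the GLP-1R agonist (SE 0.0309, adjusted p = 1.67e-34). In Combo, *Fech* was above Vehicle (0.44, adjusted p = 7.47e-16), while *Alas2* was below it. *Alad*, whose product makes porphobilinogen, had mean normalized counts of 4027 in WT, 2922 in Vehicle, 5813 with the GLP-1R agonist, 4460 with anti–IL-17A and 3133 in Combo. The uroporphyrinogen III synthase gene *Uros* had means of 1838 in WT, 788.6 in Vehicle, 1227 with the GLP-1R agonist, 1316 with anti–IL-17A and 933.2 in Combo. *Uros* was the only heme enzyme called lower in Vehicle than in WT (−1.22, SE 0.0563, adjusted p = 3.81e-22), and the only member with its highest mean in WT.

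Among the remaining enzymes, mean normalized counts were 4634 in WT, 3363 in Vehicle, 6192 with the GLP-1R agonist, 4739 with anti–IL-17A and 3691 in Combo for *Urod* (uroporphyrinogen decarboxylase). The coproporphyrinogen oxidase gene *Cpox* had means of 5840 in WT, 4410 in Vehicle, 8810 with the GLP-1R agonist, 7421 with anti–IL-17A and 6128 in Combo. *Ppox*, the protoporphyrinogen oxidase gene, had 2137 in WT, 2278 in Vehicle, 2674 with the GLP-1R agonist, 2453 with anti–IL-17A and 1941 in Combo and was the one enzyme above WT in Vehicle, by 0.09 (adjusted p = 0.0283), which turned to −0.03 without scaling beyond the library total. As a group, 6 of the 7 enzymes passed the test lower in Vehicle than in WT and 1 higher, with a median of −0.46. All 7 were higher with the GLP-1R agonist than in Vehicle, with a median of 0.99 and *Alas2* and *Fech* called, and all 7 were higher with anti–IL-17A, with a median of 0.61 and none called. *Cpox* (1.00) and *Alad* (0.99) lay just below the fold limit for the GLP-1R agonist. In Combo, 5 passed higher than Vehicle and 2 lower, *Alas2* and *Ppox*. Over all genes, between 35.8% and 38.8% passed in each direction of these comparisons, and 7.6% were called higher with the GLP-1R agonist.

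Of the importers, *Tfrc*, the transferrin receptor that brings iron into the cell, had normalized counts of 12920, 10153 and 10128 in WT, 7696, 7314 and 7084 in Vehicle, 14035, 14764 and 13702 with the GLP-1R agonist, 12183, 11919 and 12725 with anti–IL-17A and 10014, 9710 and 9278 in Combo. The first WT library, the one that stood apart, was the highest of its group. The GLP-1R agonist libraries lay above all others and the Vehicle libraries below all others. Its difference from WT was −0.59 in Vehicle (adjusted p = 7.25e-05) and −0.46 without the first WT library, and from Vehicle 0.94 with the GLP-1R agonist (adjusted p = 1.36e-06). The mitochondrial iron importer gene *Slc25a37* (mitoferrin) had mean normalized counts of 5330 in WT, 4159 in Vehicle, 11280 with the GLP-1R agonist, 7891 with anti–IL-17A and 5536 in Combo. *Slc25a38*, whose product carries glycine into mitochondria, had means of 1714 in WT, 1113 in Vehicle, 1858 with the GLP-1R agonist, 1661 with anti–IL-17A and 1364 in Combo. All 3 importers were lower in Vehicle than in WT (median −0.59) and higher than Vehicle with the GLP-1R agonist (0.94), with anti–IL-17A (0.74) and in Combo (0.39), and only *Slc25a37* with the GLP-1R agonist was called (1.44, adjusted p = 1.49e-34). Over all genes, between 35.8% and 38.8% passed in each direction of these comparisons.

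The regulators did not move as 1 group. *Gata1* had normalized counts of 1943, 1985 and 1977 in WT, 1984, 2042 and 2038 in Vehicle, 3468, 3339 and 3372 with the GLP-1R agonist, 2311, 2332 and 2419 with anti–IL-17A and 1803, 1726 and 1733 in Combo. WT and Vehicle overlapped in their values (difference 0.04, adjusted p = 0.35, and −0.09 without scaling), the GLP-1R agonist was 0.75 above Vehicle (adjusted p = 3.56e-21), and Combo was 0.20 below it (adjusted p = 1.07e-05). *Klf1*, in contrast, had normalized counts of 2165, 2294 and 2285 in WT, 1292, 1329 and 1346 in Vehicle, 3262, 3311 and 3431 with the GLP-1R agonist, 2634, 2550 and 2677 with anti–IL-17A and 2113, 2125 and 1927 in Combo. Vehicle was the lowest group without overlap, at −0.76 from WT (adjusted p = 3.01e-19), and the GLP-1R agonist was called higher than Vehicle (1.33, SE 0.042, adjusted p = 6.87e-28). *Epor*, which encodes the erythropoietin receptor, had normalized counts of 814.6, 893.7 and 838.7 in WT, 749.6, 854.8 and 781.0 in Vehicle, 2114, 1978 and 2028 with the GLP-1R agonist, 1111, 1065 and 1039 with anti–IL-17A and 754.1, 813.3 and 756.4 in Combo. WT, Vehicle and Combo overlapped, and only the GLP-1R agonist and anti–IL-17A groups stood above them. The difference of *Epor* was −0.09 for Vehicle vs WT (adjusted p = 0.148), 1.36 for the GLP-1R agonist vs Vehicle (SE 0.0543, adjusted p = 3.16e-24) and −0.04 for Combo vs Vehicle (adjusted p = 0.561).

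*Hemgn*, a nuclear gene of blood precursors under GATA1 control, had mean normalized counts of 5586 in WT, 4052 in Vehicle, 8421 with the GLP-1R agonist, 6179 with anti–IL-17A and 4104 in Combo and was called only with the GLP-1R agonist (1.06). *Nfe2*, which encodes the p45 subunit of a factor active in erythroid cells and megakaryocytes, behaved differently from the rest. Its means were 10375 in WT, 10156 in Vehicle, 11195 with the GLP-1R agonist, 11692 with anti–IL-17A and 13065 in Combo, and it was the only member with its highest mean in Combo. Over the 5 regulators, 0 passed higher and 2 lower in Vehicle vs WT (*Klf1* and *Hemgn*), 5 were higher with the GLP-1R agonist, 5 with anti–IL-17A, and in Combo 2 were higher (*Klf1* and *Nfe2*) and 1 lower than Vehicle. Over all genes, between 35.8% and 38.8% passed in each direction of these comparisons.

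**Figure D1:**
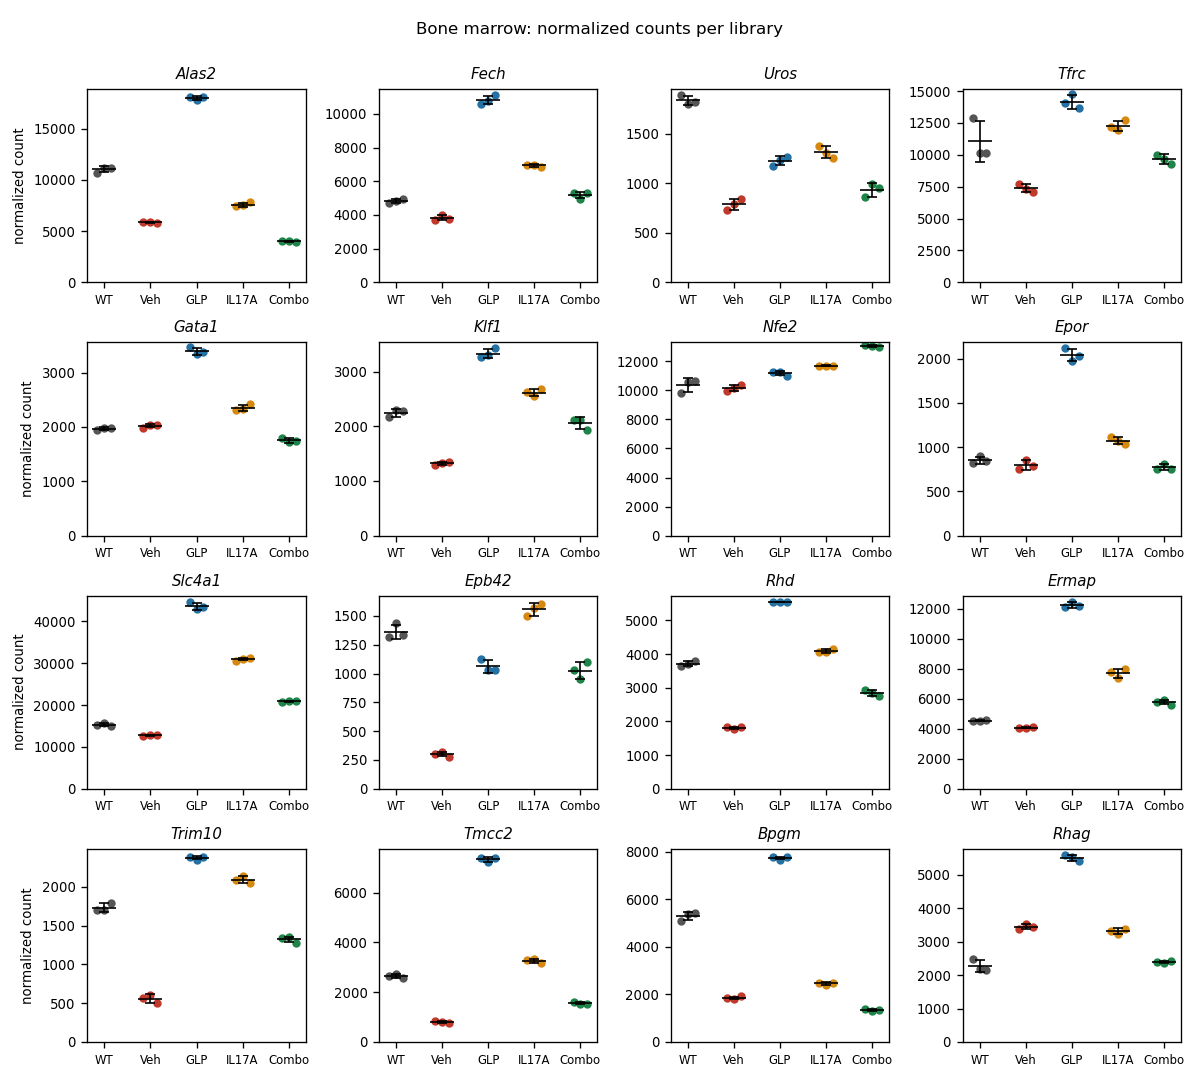
Normalized counts in BM of selected members, 1 panel per gene on a linear axis from 0, with points for the 3 libraries of each group and a bar for the mean ± SD. *Alas2* fell from about 11047 in WT to 5850 in Vehicle, reached 17993 with the GLP-1R agonist and 4013 in Combo, while *Epb42* was highest with anti–IL-17A at 1556.

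Most membrane genes were higher than in Vehicle with each agent, and several differed little between Vehicle and WT. *Slc4a1*, which encodes band 3, the anion exchanger and main membrane protein of red cells, had normalized counts of 15121, 15824 and 15044 in WT, 12552, 12920 and 12827 in Vehicle, 44555, 42908 and 43428 with the GLP-1R agonist, 30640, 30997 and 31309 with anti–IL-17A and 20634, 20953 and 20974 in Combo. The 5 groups did not overlap and followed the order Vehicle, WT, Combo, anti–IL-17A and GLP-1R agonist. Its difference from WT in Vehicle was small (−0.26, adjusted p = 4.61e-13), while the GLP-1R agonist was 1.77 above Vehicle (SE 0.0238, adjusted p = 3.04e-41) and anti–IL-17A 1.28 (adjusted p = 3.59e-36). *Ermap*, a blood group gene of the erythroid membrane, had normalized counts of 4521, 4497 and 4562 in WT, 4074, 4061 and 4090 in Vehicle, 12116, 12455 and 12198 with the GLP-1R agonist, 7791, 7380 and 7957 with anti–IL-17A and 5815, 5924 and 5610 in Combo. It followed the same order, with −0.15 in Vehicle vs WT (adjusted p = 1.46e-05) and 1.59 for the GLP-1R agonist vs Vehicle (SE 0.0286, adjusted p = 1.13e-36).

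*Rhd*, the Rh blood group gene, had normalized counts of 3644, 3716 and 3790 in WT, 1822, 1776 and 1834 in Vehicle, 5550, 5543 and 5536 with the GLP-1R agonist, 4057, 4061 and 4164 with anti–IL-17A and 2931, 2838 and 2758 in Combo. It was called lower in Vehicle than in WT (−1.04, SE 0.0338, adjusted p = 2.2e-27) and called higher than Vehicle with the GLP-1R agonist (1.61, adjusted p = 1.58e-34) and anti–IL-17A (1.18, adjusted p = 2.21e-29). *Epb42*, which encodes protein 4.2, a link between band 3 and the spectrin skeleton, had normalized counts of 1321, 1434 and 1330 in WT, 305.0, 316.8 and 279.5 in Vehicle, 1126, 1032 and 1030 with the GLP-1R agonist, 1497, 1568 and 1602 with anti–IL-17A and 1032, 950.9 and 1096 in Combo. Vehicle lay far below every other group, anti–IL-17A was highest, and the GLP-1R agonist and Combo libraries overlapped. Its fall in Vehicle was the largest of all members (−2.18, SE 0.0674, adjusted p = 3.68e-28), and it was called higher than Vehicle with the GLP-1R agonist (1.82, SE 0.0688, adjusted p = 4.39e-25), with anti–IL-17A (2.37, SE 0.0666, adjusted p = 1.3e-29) and in Combo (1.77, SE 0.0696, adjusted p = 1.55e-24).

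The remaining 4 membrane members were not lower in Vehicle than in WT. *Ank1*, the ankyrin gene, had mean normalized counts of 3019 in WT, 2952 in Vehicle, 8344 with the GLP-1R agonist, 6245 with anti–IL-17A and 5049 in Combo, with −0.03 for Vehicle vs WT (adjusted p = 0.394). *Sptb*, the beta-spectrin gene, had mean normalized counts of 3401 in WT, 3905 in Vehicle, 7286 with the GLP-1R agonist, 6159 with anti–IL-17A and 5234 in Combo and was 0.20 above WT in Vehicle (adjusted p = 9.05e-07). *Rhag*, the Rh-associated glycoprotein gene, had mean normalized counts of 2264 in WT, 3449 in Vehicle, 5518 with the GLP-1R agonist, 3311 with anti–IL-17A and 2392 in Combo and was 0.61 above WT in Vehicle (adjusted p = 3.28e-17). *Rhag* was thus opposite to *Rhd*, its partner in the Rh complex. *Kel*, the Kell blood group gene, had mean normalized counts of 1464 in WT, 1538 in Vehicle, 2835 with the GLP-1R agonist, 1943 with anti–IL-17A and 1217 in Combo, with 0.07 for Vehicle vs WT (adjusted p = 0.142). Among the 8 membrane members, 2 passed higher and 4 lower in Vehicle vs WT, with a median of −0.09. With the GLP-1R agonist, 8 passed higher than Vehicle and 5 of them were called (median 1.54), with anti–IL-17A 7 passed higher and 4 were called (1.00), and in Combo 6 passed higher, 2 passed lower and only *Epb42* was called (0.58). Over all genes, between 35.8% and 38.8% passed in each direction of these comparisons. Called higher than Vehicle were 7.6% of all genes with the GLP-1R agonist, 7.65% with anti–IL-17A and 6.58% in Combo.

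The late maturation genes had the lowest median of the 5 classes in Vehicle vs WT (−1.52). *Bpgm* makes the bisphosphoglycerate that lowers the oxygen affinity of hemoglobin, and had normalized counts of 5083, 5371 and 5427 in WT, 1844, 1802 and 1910 in Vehicle, 7779, 7666 and 7758 with the GLP-1R agonist, 2497, 2405 and 2481 with anti–IL-17A and 1395, 1295 and 1329 in Combo. No groups overlapped, WT lay well above Vehicle, anti–IL-17A and Combo, and Combo was lowest. *Bpgm* was called lower than WT in Vehicle (−1.52, SE 0.035, adjusted p = 1.05e-32), with anti–IL-17A (−1.10) and in Combo (−1.98, SE 0.036, adjusted p = 7.19e-36), and called higher than Vehicle only with the GLP-1R agonist (2.06, SE 0.0347, adjusted p = 9.48e-38). *Tmcc2*, a transmembrane and coiled-coil gene, had normalized counts of 2664, 2738 and 2564 in WT, 848.2, 792.5 and 751.0 in Vehicle, 7377, 7227 and 7389 with the GLP-1R agonist, 3289, 3317 and 3168 with anti–IL-17A and 1617, 1535 and 1530 in Combo. The groups did not overlap, and its range over the groups, 3.20 on the log2 scale, was the widest of the members. It was called lower in Vehicle than in WT (−1.74, SE 0.0428, adjusted p = 1.16e-31) and higher than Vehicle with the GLP-1R agonist (3.20, SE 0.0412, adjusted p = 6.5e-42) and anti–IL-17A (2.03, SE 0.0422, adjusted p = 2.58e-34). In Combo it was 0.97 above Vehicle (adjusted p = 5.09e-22), just below the fold limit, and 1.02 without the first Vehicle library.

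*Trim10*, an erythroid RING finger gene, had normalized counts of 1695, 1705 and 1795 in WT, 565.9, 608.9 and 502.6 in Vehicle, 2388, 2349 and 2384 with the GLP-1R agonist, 2092, 2137 and 2048 with anti–IL-17A and 1335, 1350 and 1281 in Combo. It followed the order of *Tmcc2*, with −1.63 for Vehicle vs WT (SE 0.0533, adjusted p = 2.7e-27), and was called higher than Vehicle with the GLP-1R agonist (2.08, adjusted p = 1.67e-31), anti–IL-17A (1.90, adjusted p = 6.81e-30) and Combo (1.24, SE 0.0549, adjusted p = 9.73e-23). *Xpo7*, a nuclear export gene of maturing erythroblasts, had mean normalized counts of 2403 in WT, 1598 in Vehicle, 2969 with the GLP-1R agonist, 2633 with anti–IL-17A and 2250 in Combo and was 0.59 below WT in Vehicle. *Tspo2*, an erythroid cholesterol-binding membrane gene, had mean normalized counts of 849.3 in WT, 927.5 in Vehicle, 1338 with the GLP-1R agonist, 891.2 with anti–IL-17A and 557.6 in Combo, with 0.13 for Vehicle vs WT (adjusted p = 0.114) and −0.74 for Combo vs Vehicle. Of these 5 genes, 4 passed lower in Vehicle than in WT with a median of −1.52, and 5 were higher than Vehicle with the GLP-1R agonist, with a median of 2.06. Over all genes, 38.8% passed lower in Vehicle than in WT and 36.5% higher with the GLP-1R agonist than in Vehicle.

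The 5 members with the widest range in BM, *Tmcc2*, *Bpgm*, *Epb42*, *Alas2* and *Trim10*, are shown with the bases before their RefSeq start sites, since all 5 were lower in Vehicle than in WT and higher with the GLP-1R agonist than in Vehicle. The windows are on GRCm38.p6, up to 250 bases before the start and only as far as the first base of an annotated exon, given 5′ to 3′ on the strand of the gene. They are chr1:132367949-132368198 (minus strand), chr6:34476106-34476206 (plus), chr2:121037073-121037127 (minus), chrX:150547167-150547374 (plus) and chr17:36869324-36869573 (plus), in the same order. *Tmcc2* has 3 starts in the table, and the window printed was taken because it alone holds the letters searched, with 0 matches before each of the other starts. Capitals mark the letters that GATA factors bind, searched on both strands as AGATAA and also as TGATAA and also as AGATAG and also as TGATAG.
Tmcc2: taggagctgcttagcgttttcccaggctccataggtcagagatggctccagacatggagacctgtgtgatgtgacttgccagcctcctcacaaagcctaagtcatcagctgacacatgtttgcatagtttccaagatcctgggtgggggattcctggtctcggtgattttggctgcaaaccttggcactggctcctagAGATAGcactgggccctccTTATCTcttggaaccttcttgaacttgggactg
Bpgm: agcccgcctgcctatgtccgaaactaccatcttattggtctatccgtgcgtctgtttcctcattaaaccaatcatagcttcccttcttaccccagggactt
Epb42: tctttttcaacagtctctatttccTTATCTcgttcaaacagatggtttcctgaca
Alas2: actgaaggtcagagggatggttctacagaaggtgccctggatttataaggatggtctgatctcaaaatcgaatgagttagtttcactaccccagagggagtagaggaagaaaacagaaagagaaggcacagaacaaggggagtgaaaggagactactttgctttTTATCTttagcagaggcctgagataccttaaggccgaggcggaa
Trim10: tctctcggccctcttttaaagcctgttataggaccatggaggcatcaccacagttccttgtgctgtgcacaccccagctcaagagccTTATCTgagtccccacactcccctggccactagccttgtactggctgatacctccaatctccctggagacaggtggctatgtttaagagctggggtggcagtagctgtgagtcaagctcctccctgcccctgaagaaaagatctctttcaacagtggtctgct
Counted from the start site, the letters began at −52 and −33 in *Tmcc2*, at −226 in *Epb42*, at −86 in *Alas2* and at −163 in *Trim10*, and were not found before *Bpgm*. Of 28 members, 22 had a RefSeq promoter in the table used, and 13 of these held the letters (59.1%), counted as 13 of 27 promoters (48.1%). Over all 32851 promoters of the same length, 26.5% held them. The 5 letters CACCC, part of the sequence that KLF1 binds, were in 16 of the 22 members (72.7%) and 19 of their 27 promoters (70.4%), and in 52% of all promoters. A match describes the letters and does not show binding.

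Counted over all members, Vehicle vs WT had 6 of 28 called lower and 0 called higher, against 10% of all BM genes called lower and 9.44% higher. By the adjusted p alone, 19 were lower and 3 higher, where 38.8% of all genes were lower and 37.8% higher. The median log2 fold change was −0.43 for the members and −0.02 for all genes. The 6 called genes were *Epb42*, *Tmcc2*, *Trim10*, *Bpgm*, *Uros* and *Rhd*, 3 of them late maturation genes. *Gata1*, *Epor*, *Nfe2*, *Ank1*, *Kel* and *Tspo2* did not pass.

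With the GLP-1R agonist, 14 of 28 were called higher than Vehicle and 0 lower, against 7.6% of all genes higher and 9.08% lower. By the adjusted p alone all 28 were higher (36.5% of all genes) and 0 lower (36.3%), from 0.14 for *Nfe2* to 3.20 for *Tmcc2*, with a median of 1.03 against 0.01 for all genes. Without scaling beyond the library total, 21 members were called. This group also exceeded WT, with 9 members called higher and 0 lower where 6.1% of all genes were higher and 8.62% lower. *Slc4a1* (1.51), *Ank1* (1.47), *Tmcc2* (1.46), *Ermap* (1.44), *Rhag* (1.28), *Epor* (1.27), *Fech* (1.16), *Sptb* (1.10) and *Slc25a37* (1.08) were those 9, while *Uros* (−0.58) and *Epb42* (−0.36) remained below WT.

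Anti–IL-17A gave 6 members called higher than Vehicle and 0 lower, against 7.65% and 8.46% of all genes. They were *Epb42*, *Tmcc2*, *Trim10*, *Slc4a1*, *Rhd* and *Ank1* (1.08, adjusted p = 2.66e-28). By the adjusted p alone 26 were higher and 0 lower, against 36.4% and 36.6% of all genes, with a median of 0.69 against 0.01. *Rhag* (−0.06, adjusted p = 0.161, and 0.11 without scaling) and *Tspo2* (−0.06, adjusted p = 0.499) did not pass. Without scaling beyond the library total, 10 members were called. Against WT, anti–IL-17A had *Slc4a1* (1.02) and *Ank1* (1.05) called higher and *Bpgm* called lower, among 2.3% and 4.02% of all genes.

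Combo had only *Epb42* and *Trim10* called higher than Vehicle and 0 members lower, against 6.58% and 11.1% of all genes. By the adjusted p alone, 19 were higher and 7 lower, against 37.9% and 35.8% of all genes, and the median was 0.38 against 0.02. The 7 lower genes were *Tspo2* (−0.74), *Alas2* (−0.54), *Rhag* (−0.53), *Bpgm* (−0.47), *Kel* (−0.34), *Ppox* (−0.23) and *Gata1* (−0.20). Against WT, *Bpgm* (−1.98) and *Alas2* (−1.46) were called lower in Combo and 0 members higher, where 9.93% of all genes were lower and 4.4% higher. *Uros*, at −0.98, was just outside, and −1.03 without the second Combo library.

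**Figure D2:**
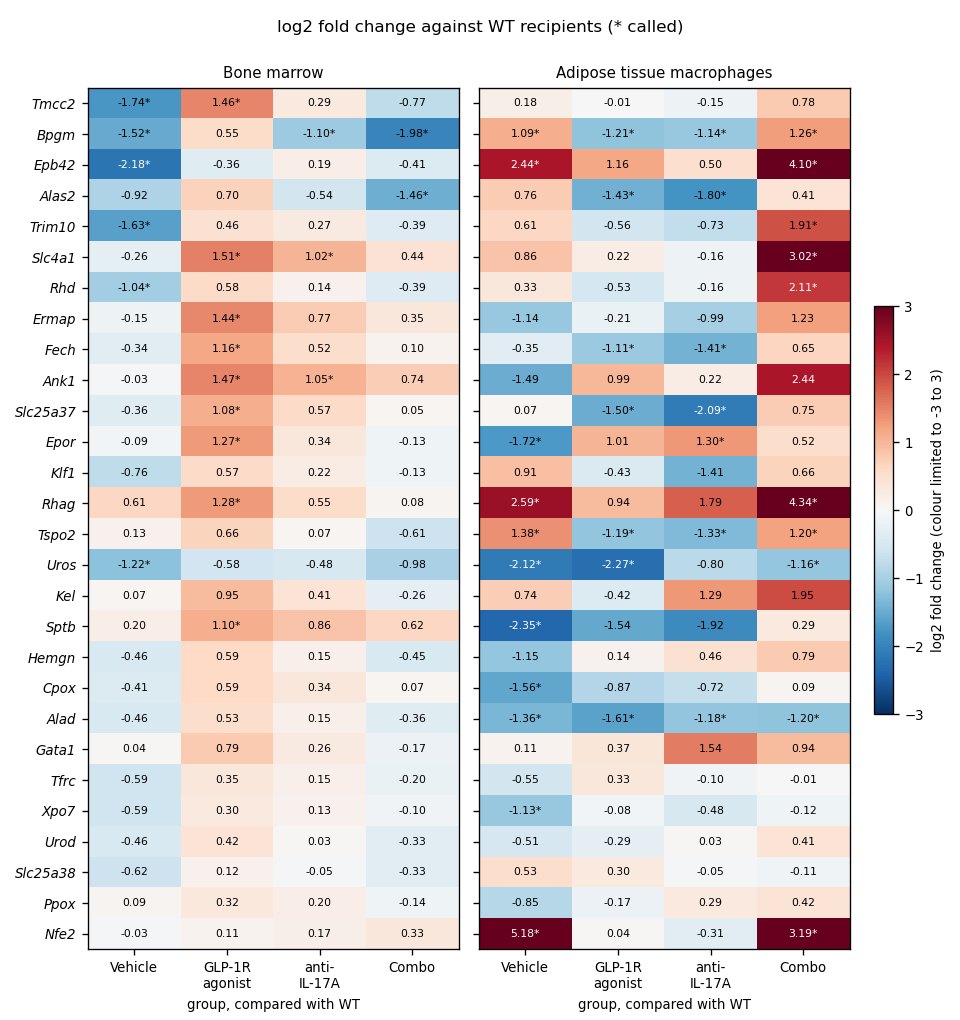
Log2 fold change of each member against WT in BM and ATMs, with rows ordered by the range of the BM group means and an asterisk on called differences. In BM the Vehicle column was mostly negative, down to −2.18 for *Epb42*, and the GLP-1R agonist column mostly positive, up to 1.51 for *Slc4a1*.

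The single agents differed from each other in BM. The GLP-1R agonist had 3 members called higher than anti–IL-17A, *Bpgm* (1.65), *Alas2* (1.25) and *Tmcc2* (1.17), and 0 lower, against 2.43% and 3.41% of all genes. *Epb42* was lower with the GLP-1R agonist than with anti–IL-17A, at −0.55, without being called.

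Most members lay below both single agents in Combo. Those below each agent with an adjusted p below 0.05 numbered 26 of 28, and 15.2% of all genes were of this kind. The reverse held for *Nfe2*, whose differences from both agents turned to −0.03 without scaling beyond the library total, and for 24% of all genes. Against the GLP-1R agonist, 12 were called lower and 0 higher in Combo, where 8.57% of all genes were lower and 4.59% higher. *Bpgm* (−2.53, adjusted p = 4.64e-39), *Tmcc2* (−2.23) and *Alas2* (−2.16, adjusted p = 4.03e-41) differed most, followed by *Epor* (−1.40), *Tspo2* (−1.26), *Kel* (−1.22) and *Rhag* (−1.21). Against anti–IL-17A, *Tmcc2* was called lower (−1.06, adjusted p = 7.28e-25), and 0 members higher, where 4.63% of all genes were lower and 1.04% higher. *Alas2* (−0.92) and *Bpgm* (−0.88) stayed within the fold limit. *Xist* was high in Combo and far lower with either single agent, so these differences cannot be told apart from sex.

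Whether Combo equaled the effects of the GLP-1R agonist and of anti–IL-17A added up on the log2 scale was tested in the same fit. The departure from this sum was called below 0 for 26 of 28 members and above 0 for 0, against 11.5% and 9.59% of all genes, and its median was −1.60 for the members and 0.00 for all genes. *Tmcc2* departed most (−4.26, SE 0.0563, adjusted p = 9.63e-41), then *Bpgm* (−2.94, adjusted p = 6.46e-37), *Trim10* (−2.74), *Alas2* (−2.54, adjusted p = 2.2e-39), *Epb42* (−2.42) and *Slc4a1* (−2.34). *Ppox* (−0.57) passed without being called, and *Nfe2* did not pass (0.02, adjusted p = 0.649). The departure sets Vehicle and Combo, both with high *Xist*, against the single agents, where *Xist* was far lower. It therefore cannot be told apart from sex.

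**Figure D3:**
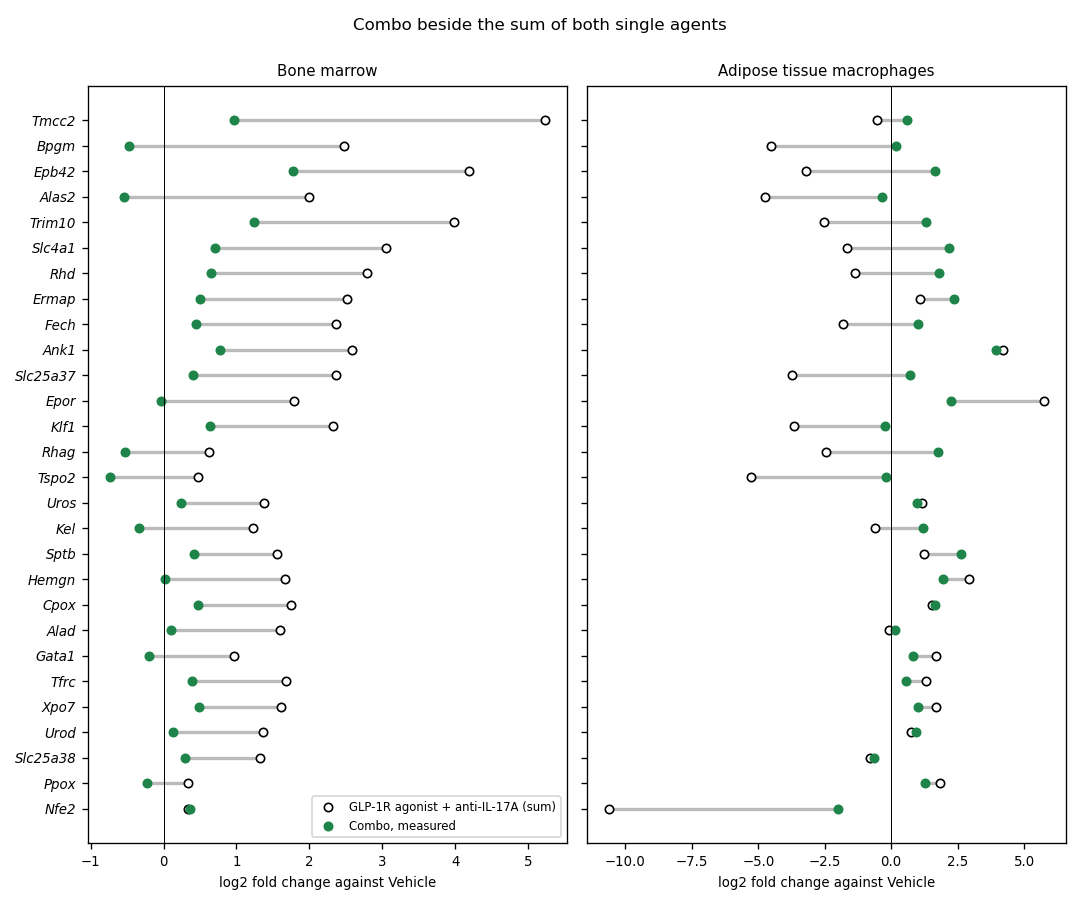
Log2 fold change from Vehicle for each member, in BM and in ATMs. An open circle gives the sum of both single-agent effects and a filled circle the Combo value measured. In BM the measured value for *Tmcc2* was 0.97, a departure of −4.26 from the sum, and for *Nfe2* the departure was 0.02.

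As a summary per library, the median over the 28 members of the log2 normalized count, centered on its mean over the 15 BM libraries, was −0.08, −0.02 and −0.07 in WT, −0.52, −0.53 and −0.50 in Vehicle, 0.64, 0.62 and 0.63 with the GLP-1R agonist, 0.19, 0.19 and 0.19 with anti–IL-17A and −0.19, −0.24 and −0.23 in Combo. The groups did not overlap. Of the 28 members, 25 had their highest mean with the GLP-1R agonist, and *Uros* (WT), *Epb42* (anti–IL-17A) and *Nfe2* (Combo) were the exceptions. Vehicle held the lowest mean for 19 members, Combo for 7 and WT for 2. Counts on the members summed to 3524 to 3585 CPM (counts scaled to the library total) in WT, 2412 to 2446 in Vehicle, 6829 to 6871 with the GLP-1R agonist, 4599 to 4689 with anti–IL-17A and 3012 to 3037 in Combo.

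Markers of other cell types moved with the groups in BM, and their part in the results above was not tested. Granulocyte markers summed to 110284 to 115870 CPM in WT, 113414 to 115577 in Vehicle, 89517 to 90244 with the GLP-1R agonist, 102817 to 103946 with anti–IL-17A and 127568 to 128742 in Combo. Among treated groups they were lowest where the erythroid sum was highest. Of 12 granulocyte genes, 0 were called higher and 1 lower in Vehicle vs WT, 1 and 0 for the GLP-1R agonist vs Vehicle, 2 and 0 for anti–IL-17A, and 7 and 0 for Combo. Over all genes, 9.44% were called higher and 10% lower in Vehicle vs WT. Called higher than Vehicle were 7.6% with the GLP-1R agonist, 7.65% with anti–IL-17A and 6.58% in Combo. Monocyte and macrophage markers summed to 14170 to 14580 CPM in WT and 4474 to 7922 in the other groups. B cell markers summed to 1388 to 1435 CPM in WT, 385.5 to 404.2 in Vehicle, 152.2 to 154.1 with the GLP-1R agonist, 471.8 to 479 with anti–IL-17A and 126.5 to 132.6 in Combo. In Vehicle vs WT, 9 of 10 B cell genes were called lower (*Ms4a1* −2.38, *Blk* −1.99) and 4 of 11 monocyte and macrophage genes each way (*Cd14* 3.93, *Fcgr1* 3.46, *Mrc1* −2.91, *Cx3cr1* −2.67).

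Other markers counted in Vehicle vs WT were 10 of macrophages that nurse erythroblasts, with 2 called higher (*Mertk* 1.35, *Siglec1* 1.20) and 1 lower (*Klf4* −2.85). Of 12 megakaryocyte and platelet genes 1 was higher (*Selp* 1.41) and 2 lower (*Treml1* −1.31, *Ppbp* −1.28), of 9 mast cell and basophil genes 1 was higher (*Hdc* 1.44) and 0 lower, of 9 T cell genes 0 were called, and of 10 stem and progenitor genes 2 were higher (*Procr* 4.37, *Hoxa9* 1.09) and 0 lower. The megakaryocyte lineage shares *Gata1* and *Nfe2* with the erythroid lineage, and 3 of its 12 markers were called in this comparison. With the GLP-1R agonist vs Vehicle, where the erythroid members rose, megakaryocyte and platelet markers summed to 227.0 to 234.6 CPM against 157.3 to 164.8, with 1 of 12 called higher and 0 lower and a median of 0.57. Stem and progenitor markers summed to 211.9 to 214.2 CPM against 127.2 to 130.4, with 1 of 10 called each way. Mast cell and basophil markers summed to 584.2 to 595.5 CPM against 1741 to 1787, with 2 of 9 called higher and 6 lower. Shares of all genes called were 9.44% higher and 10% lower in Vehicle vs WT, and 7.6% and 9.08% with the GLP-1R agonist vs Vehicle.

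Other genes of the red cell were counted beside all BM genes, of which 9.44% were called higher and 10% lower in Vehicle vs WT. For the GLP-1R agonist vs Vehicle, 7.6% of all genes were called higher and 9.08% lower. Of 21 further membrane genes, 2 were called higher (*Slc2a1* 1.94, *Cd47* 1.37) and 2 lower (*Art4* −2.19, *Slc14a1* −1.08) in Vehicle vs WT, with a median of −0.27, and 14 were called higher and 1 lower with the GLP-1R agonist vs Vehicle, with a median of 1.26. Of 27 further late maturation genes, 1 was higher (*Nt5c3* 1.43) and 3 lower in Vehicle (among them *Pklr* −1.60), and 8 were higher and 0 lower with the GLP-1R agonist. The 2 embryonic and minor globin genes measured were not called in Vehicle vs WT and both were called higher with the GLP-1R agonist, *Hbq1b* by 1.40.

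Of 19 further heme genes, 3 were called higher in Vehicle vs WT and 0 lower, led by the haptoglobin gene *Hp* (1.57) and by *Alas1* (1.50), the synthase that other tissues use in place of *Alas2*. *Alas1* was −1.13 with the GLP-1R agonist vs Vehicle, opposite in sign to *Alas2*. Of 17 iron genes 2 were called higher (*Slc39a14* 1.84, *Fth1* 1.04) and 3 lower, among them *Slc40a1* (−2.36), the gene of the iron exporter ferroportin, and *Trf* (−1.65), the transferrin gene. With the GLP-1R agonist vs Vehicle, *Slc40a1* was 2.12 and *Trf* 1.47. The sum over the 17 iron genes went the other way, at 4806 to 4944 CPM against 5222 to 5305 in Vehicle. The sum over the 19 further heme genes was also lower, at 3864 to 3881 CPM against 5636 to 5804. Of 22 other erythroid transcription factors 2 were higher (*Klf13* 1.18, *Gfi1b* 1.04) and 4 lower (*Cbfa2t3* −1.44 and *Bcl11a* −1.19 most) in Vehicle vs WT. Of 17 genes of erythropoietin signaling, 4 were higher (*Cish* 1.53 and *Gab2* 1.50 most) and 0 lower. Their sum was 1690 to 1695 CPM with the GLP-1R agonist against 1847 to 1866 in Vehicle. The sum over the 22 transcription factors was higher with the GLP-1R agonist, at 3010 to 3015 CPM against 1903 to 1919. Over all genes, 9.44% were called higher and 10% lower in Vehicle vs WT.

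In ATMs, the same members gave another picture. Most counts came from *Alas2*, *Fech* and *Bpgm*, whose levels were higher in Vehicle and Combo than with either single agent, and few came from *Gata1* (1 to 180 counts per library) and *Klf1* (6 to 47). Vehicle vs WT had 5 members called higher (12.5% of all genes) and 6 lower (22.9%), and Combo was the group with the highest mean for 17 of 28. In CPM per kb of exon, with no test between the tissues, *Alas2* had 1828 in WT, 2276 in Vehicle, 580.9 with the GLP-1R agonist, 492.9 with anti–IL-17A and 2396 in Combo in ATMs, and 44.0 to 235.7 in BM. *Gata1* had 0.393 to 1.35 CPM per kb in ATMs and 18.9 to 43.8 in BM, and *Klf1* 0.179 to 0.793 in ATMs and 23.1 to 68.6 in BM. A sum of the members without *Alas2* was 1481 to 1548 CPM in WT, 1336 to 1413 in Vehicle, 687.8 to 726.2 with the GLP-1R agonist, 695.7 to 729.8 with anti–IL-17A and 2603 to 2820 in Combo.

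*Alas2* had normalized counts of 126786, 131760 and 134256 in WT, 222322, 222183 and 218423 in Vehicle, 49571, 49514 and 46497 with the GLP-1R agonist, 37257, 38120 and 37546 with anti–IL-17A and 174138, 171598 and 176816 in Combo in ATMs. The groups did not overlap. It was 0.76 above WT in Vehicle (SE 0.0278, adjusted p = 2.07e-12) and called lower than Vehicle with the GLP-1R agonist (−2.19, SE 0.0289, adjusted p = 1.29e-17) and anti–IL-17A (−2.55, SE 0.0293, adjusted p = 3.81e-18). In Combo it was −0.34 from Vehicle (adjusted p = 4.36e-08), which became 0.07 without scaling beyond the library total.

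*Fech* had normalized counts of 17227, 17594 and 17953 in WT, 13809, 13527 and 14087 in Vehicle, 8124, 8204 and 8157 with the GLP-1R agonist, 6330, 6559 and 7032 with anti–IL-17A and 28630, 27573 and 26418 in Combo, with Combo highest and no overlap. It was called lower than Vehicle with anti–IL-17A (−1.06, adjusted p = 6.6e-12), a call lost without scaling beyond the library total (−0.71), and lay at the fold limit without passing it in Combo (1.00, adjusted p = 1.58e-11, and 1.41 without that scaling). Other heme enzymes differed from *Alas2* in that WT was above Vehicle.

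*Alad* had normalized counts of 2991, 2750 and 2410 in WT, 1208, 1080 and 893.5 in Vehicle, 812.2, 788.5 and 1061 with the GLP-1R agonist, 1387, 1079 and 1140 with anti–IL-17A and 1262, 1102 and 1174 in Combo. It was called lower in Vehicle than in WT (−1.36, adjusted p = 1.31e-06). *Uros* had normalized counts of 437.1, 378.7 and 527.4 in WT, 129.6, 73.4 and 106.3 in Vehicle, 100.5, 86.7 and 91.6 with the GLP-1R agonist, 250.9, 268.6 and 249.2 with anti–IL-17A and 190.9, 186.9 and 224.7 in Combo. Vehicle and the GLP-1R agonist were lowest, with −2.12 for Vehicle vs WT (adjusted p = 5.48e-06) and 1.31 for anti–IL-17A vs Vehicle (adjusted p = 0.000495). *Cpox* had normalized counts of 700.3, 791.1 and 715.8 in WT, 217.7, 174.7 and 357.7 in Vehicle, 376.3, 425.4 and 403.2 with the GLP-1R agonist, 535.5, 358.2 and 449.6 with anti–IL-17A and 628.9, 894.8 and 818.3 in Combo. WT and Combo overlapped above the rest, and Vehicle was −1.56 from WT (adjusted p = 5.2e-05). *Ppox* had normalized counts of 575.2, 388.2 and 616.7 in WT, 231.1, 224.6 and 419.1 in Vehicle, 330.5, 365.8 and 706.9 with the GLP-1R agonist, 560.7, 672.7 and 702.8 with anti–IL-17A and 850.9, 674.5 and 593.6 in Combo. It was called higher than Vehicle with anti–IL-17A (1.15, adjusted p = 0.00516), a call lost without the first (1.00) or the second Vehicle library (0.99), and in Combo (1.28). Of the bases of *Ppox* exons, 17.5% are shared with *B4galt3*.

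*Slc25a37* was the only importer called in ATMs, with normalized counts of 2823, 2732 and 2501 in WT, 2557, 2755 and 3127 in Vehicle, 876.9, 1089 and 888.4 with the GLP-1R agonist, 843.9, 541.1 and 502.3 with anti–IL-17A and 5087, 4494 and 3988 in Combo. Both single agents lay below Vehicle, at −1.57 with the GLP-1R agonist (adjusted p = 1.02e-06) and −2.16 with anti–IL-17A. Group means of *Tfrc* ran from 1032 to 1892 and those of *Slc25a38* from 600.4 to 937.2.

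*Nfe2* moved more than any other regulator, with normalized counts of 117.9, 87.3 and 132.9 in WT, 4826, 3346 and 4092 in Vehicle, 126.4, 100.3 and 119.6 with the GLP-1R agonist, 61.7, 92.6 and 119.8 with anti–IL-17A and 1006, 1130 and 938.7 in Combo. It was called higher in Vehicle than in WT (5.18, SE 0.241, adjusted p = 3.74e-11), and lower than Vehicle with the GLP-1R agonist (−5.14, adjusted p = 4.67e-11), with anti–IL-17A (−5.49) and in Combo (−2.00, adjusted p = 6.7e-07). Granulocyte markers moved with it, at 270.6 to 297.2 CPM in WT, 17802 to 18738 in Vehicle, 178.1 to 180.5 with the GLP-1R agonist, 419 to 435 with anti–IL-17A and 14061 to 14453 in Combo, with 12 of 12 called higher in Vehicle vs WT and none at 0 in a whole group. Of all ATM genes, 12.5% were called higher in that comparison. The part of the granulocyte markers in the result was not tested.

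*Epor* had normalized counts of 151.3, 205.1 and 177.6 in WT, 52.1, 17.6 and 92.8 in Vehicle, 350.4, 379.3 and 350.0 with the GLP-1R agonist, 569.1, 385.7 and 357.0 with anti–IL-17A and 219.4, 298.9 and 247.5 in Combo. It was lowest in Vehicle, called lower than WT (−1.72, adjusted p = 0.00215) and called higher than Vehicle with the GLP-1R agonist (2.73, adjusted p = 4.76e-05), with anti–IL-17A (3.01, adjusted p = 1.73e-05) and in Combo (2.24, adjusted p = 0.000311). *Hemgn* had normalized counts of 86.9, 64.2 and 83.9 in WT, 40.1, 27.9 and 37.4 in Vehicle, 72.7, 155.8 and 32.3 with the GLP-1R agonist, 88.3, 130.1 and 105.4 with anti–IL-17A and 145.1, 164.3 and 95.8 in Combo. *Klf1* had normalized counts of 21.4, 18.9 and 29.4 in WT, 44.1, 63.1 and 23.9 in Vehicle, 14.9, 23 and 14 with the GLP-1R agonist, 4.21, 11.5 and 10.4 with anti–IL-17A and 27.6, 37.9 and 44.6 in Combo. Both genes were at levels where few reads decide. *Hemgn* was called higher than Vehicle with anti–IL-17A (1.62, adjusted p = 0.0166) and in Combo (1.94), and *Klf1* lower with anti–IL-17A (−2.32, adjusted p = 0.0166), a call lost without the second Vehicle library (−1.96, adjusted p = 0.0547) or the first anti–IL-17A library (−1.99, adjusted p = 0.0587). *Gata1* group means ran from 35.9 to 104.6, and with *Klf1*, *Kel* and *Ermap* it was one of 4 members that did not pass the test for any difference among the groups (adjusted p from 0.077 to 0.561). The other 24 of 28 passed, as did 73.5% of all ATM genes.

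The membrane genes called in ATMs were highest in Combo. *Slc4a1* had normalized counts of 830.1, 493.4 and 746.4 in WT, 1192, 924.7 and 1648 in Vehicle, 556.4, 1009 and 842.2 with the GLP-1R agonist, 624.5, 525.8 and 706.0 with anti–IL-17A and 6027, 5363 and 5411 in Combo. Every Combo library lay above all other libraries, and Combo was 2.16 above Vehicle (SE 0.239, adjusted p = 1.73e-06). With anti–IL-17A it was called lower than Vehicle (−1.02, adjusted p = 0.00171), a call lost without the third Vehicle library (−0.79), without the second anti–IL-17A library (−0.91) or without scaling beyond the library total (−0.67). *Epb42* had normalized counts of 58.4, 20 and 37 in WT, 241.8, 173.2 and 211.0 in Vehicle, 97.5, 28.4 and 130.0 with the GLP-1R agonist, 98.1, 19.9 and 44.7 with anti–IL-17A and 733.4, 498.4 and 748.1 in Combo. Combo stood above every other group, and WT was lowest. *Epb42* was called higher in Vehicle than in WT (2.44, SE 0.59, adjusted p = 0.0024), lower than Vehicle with anti–IL-17A (−1.94, adjusted p = 0.00879) and higher in Combo (1.66, adjusted p = 0.0218), the last call lost without the second Vehicle library (1.54, adjusted p = 0.0635), the first Combo library (1.58, adjusted p = 0.0581) or the third (1.56, adjusted p = 0.0602).

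*Rhd* had normalized counts of 42.9, 56.8 and 59.9 in WT, 44.1, 63.1 and 94.3 in Vehicle, 44.8, 28.4 and 36.7 with the GLP-1R agonist, 71.5, 39.8 and 31.1 with anti–IL-17A and 159.8, 282.6 and 249.4 in Combo. Combo stood above the other groups, which overlapped, and was called higher than Vehicle (1.78, adjusted p = 0.00593). *Rhag* had normalized counts of 7.15, 21 and 14.2 in WT, 65.5, 174.7 and 18 in Vehicle, 12.9, 9.48 and 58.5 with the GLP-1R agonist, 57.5, 21.4 and 68.7 with anti–IL-17A and 314.5, 237.5 and 319.5 in Combo. Combo was again above every other group. *Rhag* was called higher in Vehicle than in WT (2.59, adjusted p = 0.0159), although the libraries of these groups overlapped and the call was lost without the second Vehicle library (1.55, adjusted p = 0.119) or the first WT library (2.28, adjusted p = 0.0618).

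For the skeleton genes, *Ank1* had normalized counts of 40.5, 21 and 26.1 in WT, 0, 16.1 and 15 in Vehicle, 41.8, 73.2 and 59.3 with the GLP-1R agonist, 14, 7.65 and 80.7 with anti–IL-17A and 131.3, 208.6 and 137.5 in Combo. *Sptb* had normalized counts of 344.2, 321.9 and 484.9 in WT, 92.2, 133.6 and 0 in Vehicle, 129.4, 162.6 and 103.9 with the GLP-1R agonist, 28, 109.4 and 166.1 with anti–IL-17A and 390.5, 521.9 and 498.8 in Combo. Each had 1 Vehicle library at 0. *Ank1* was called higher than Vehicle with the GLP-1R agonist (2.48, adjusted p = 0.0471), lost without any one of the 6 libraries, as with 2.95 and an adjusted p of 0.051 without the second Vehicle library, and in Combo (3.93, adjusted p = 0.00549). *Sptb* was called lower in Vehicle than in WT (−2.35, adjusted p = 0.0238), lost without the third WT library (−2.14, adjusted p = 0.0643), and higher in Combo than in Vehicle (2.64, adjusted p = 0.0155). *Kel* and *Ermap* also had libraries at 0 and were not called in the 5 main comparisons.

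Of the late maturation genes, *Bpgm* had normalized counts of 11390, 11605 and 12285 in WT, 24601, 24617 and 25777 in Vehicle, 5132, 5244 and 4854 with the GLP-1R agonist, 5562, 5416 and 5047 with anti–IL-17A and 29453, 27715 and 27358 in Combo. It was called higher in Vehicle than in WT (1.09, SE 0.0482, adjusted p = 2.04e-11), opposite to its direction in BM, and lower than Vehicle with the GLP-1R agonist (−2.30, adjusted p = 3.91e-15) and anti–IL-17A (−2.23, adjusted p = 4.27e-15). *Tspo2* had normalized counts of 235.8, 239.8 and 212.5 in WT, 653.2, 519.6 and 615.2 in Vehicle, 138.4, 103.0 and 61.1 with the GLP-1R agonist, 86.9, 90.3 and 96.6 with anti–IL-17A and 506.2, 494.8 and 575.6 in Combo and followed *Bpgm*, with 1.38 in Vehicle vs WT (adjusted p = 0.000233), −2.57 with the GLP-1R agonist vs Vehicle (adjusted p = 6.15e-07) and −2.71 with anti–IL-17A. Without scaling beyond the library total, the Vehicle vs WT differences were 0.65 for *Bpgm* and 0.94 for *Tspo2*, and both calls were lost. *Trim10* had normalized counts of 576.4, 703.7 and 594.9 in WT, 864.3, 1195 and 811.2 in Vehicle, 276.7, 499.9 and 494.8 with the GLP-1R agonist, 390.4, 311.5 and 425.7 with anti–IL-17A and 2339, 2641 and 2062 in Combo, with Combo above all other groups (1.30 from Vehicle, adjusted p = 0.000123), −1.18 with the GLP-1R agonist vs Vehicle (adjusted p = 0.000304, and below the limit without the second Vehicle library at −0.99 or the first GLP-1R agonist library at −0.94, and without scaling beyond the library total at −0.96) and −1.35 with anti–IL-17A.

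*Xpo7* ran the other way, with normalized counts of 2113, 2072 and 2059 in WT, 697.3, 924.7 and 1242 in Vehicle, 2228, 1768 and 1892 with the GLP-1R agonist, 1634, 1262 and 1593 with anti–IL-17A and 2185, 1719 and 1858 in Combo. It was called lower in Vehicle than in WT (−1.13, adjusted p = 4.83e-05), and higher than Vehicle with the GLP-1R agonist (1.04, adjusted p = 0.00011) and in Combo (1.01). Without the first Vehicle library these values were −0.95, 0.86 and 0.83, below the fold limit, as was the GLP-1R agonist value without its first library (0.94) and the Combo value without the second Vehicle (0.99) or first Combo library (0.91). *Tmcc2* (group means 414.4 to 791.7) and *Urod* (1026 to 1945) were not called in the 5 main comparisons.

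**Figure D4:**
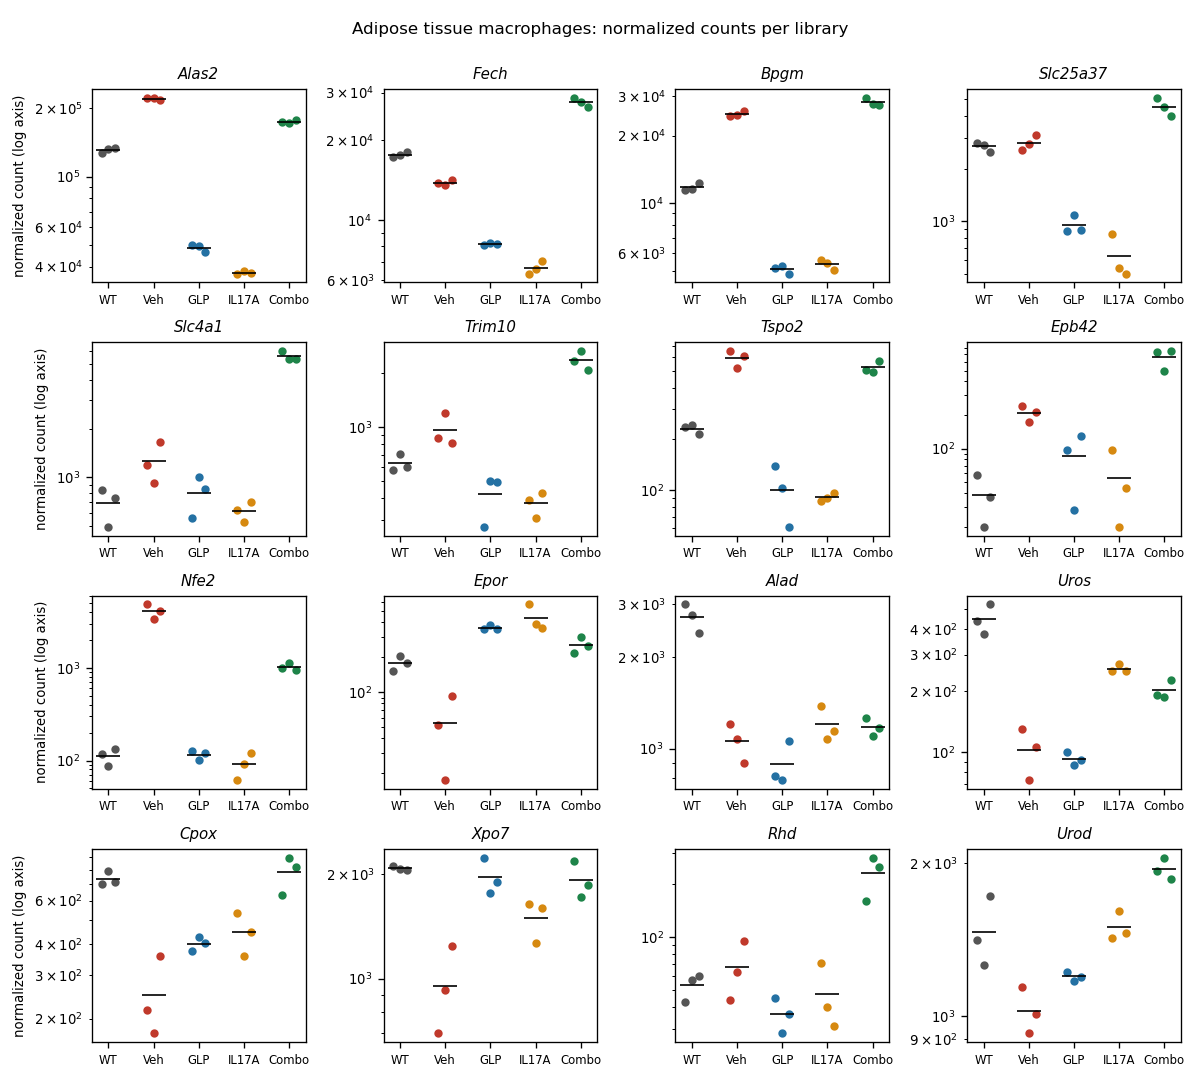
Normalized counts in ATMs of the 5 members with the most counts and of other members, 1 panel per gene on a log axis, with points for the 3 libraries of each group and a dash for the mean. *Alas2* averaged 220976 in Vehicle and 174184 in Combo against 48527 and 37641 with the single agents, and *Nfe2* 4088 in Vehicle against 112.7 in WT.

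Counted over all members in ATMs, Vehicle vs WT had 5 of 28 called higher and 6 lower, against 12.5% and 22.9% of all genes, with a median of 0.09 for the members and −0.21 for all genes, and the member median turned to −0.13 without the second WT library and −0.11 without the second Vehicle library. The GLP-1R agonist vs Vehicle had 3 higher and 6 lower (20.8% and 10.9% of all genes), and 6 to 12 members were called when a library was left out. Anti–IL-17A vs Vehicle had 4 higher and 10 lower (22.4% and 13.1%). Combo vs Vehicle had 11 higher and 1 lower, *Nfe2* (14.1% and 12.2%), with a median of 1.00 against 0.00. Without scaling beyond the library total, 18 members were called in Combo vs Vehicle, with *Tmcc2*, *Slc25a37*, *Rhag*, *Fech*, *Urod* and *Uros* added. Combo vs WT had 8 higher and 2 lower (7.08% and 14.5%), the latter *Alad* (−1.20) and *Uros* (−1.16), and *Rhag* (4.34), *Epb42* (4.10), *Nfe2* (3.19) and *Slc4a1* (3.02) were highest.

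Many members lay above both single agents in Combo in ATMs, where in BM most lay below. Combo was higher than each with an adjusted p below 0.05 for 14 of 28 members and lower than each for 0, against 5.94% and 13% of all genes. Against the GLP-1R agonist 12 members were called higher in Combo and 0 lower (5.38% and 13.4% of all genes), and against anti–IL-17A 11 higher and 0 lower (3.73% and 10.5%). The departure from the sum of both single agents was called above 0 for 13 members and below 0 for 1, against 12.9% and 23% of all genes. It was 8.63 for *Nfe2*, 4.70 for *Bpgm* (adjusted p = 5.78e-17) and 4.40 for *Alas2* (adjusted p = 2.94e-19), and −3.51 for *Epor*. The median over members per library was 0.11, −0.13 and 0.13 in WT, −0.03, 0.03 and −0.13 in Vehicle, −0.53, −0.49 and −0.32 with the GLP-1R agonist, −0.08, −0.38 and −0.15 with anti–IL-17A and 1.02, 1.10 and 0.93 in Combo. Combo was separate from all groups, while WT and Vehicle overlapped. As in BM, *Xist* was high in Vehicle and Combo and far lower in WT and with the single agents. Comparisons of Vehicle or Combo with WT or with a single agent cannot be told apart from sex, and neither can the departure.

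**Figure D5:**
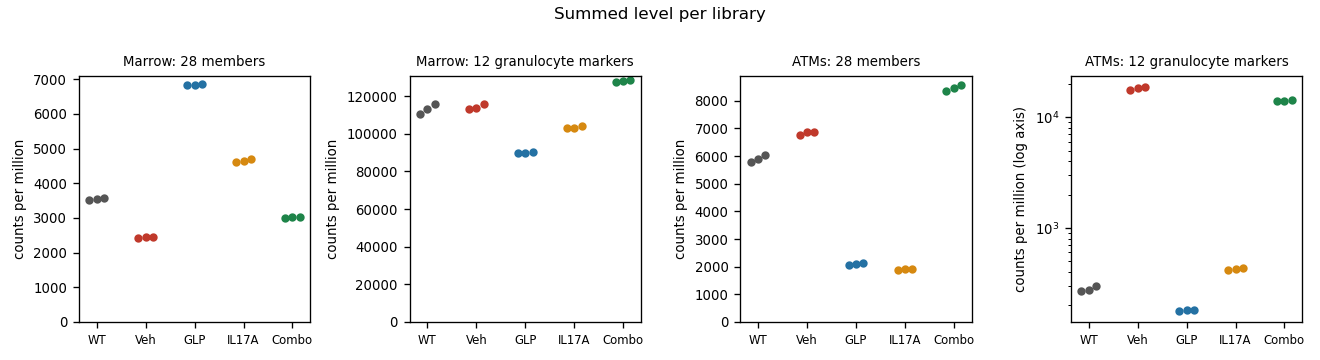
Summed CPM per library of the 28 members and of 12 granulocyte markers, by group, in BM and in ATMs, with libraries of a group drawn from lowest to highest and a log axis for the granulocyte markers in ATMs. In BM the member sum was 2412 to 2446 in Vehicle and 6829 to 6871 with the GLP-1R agonist, and in ATMs 6772 to 6875 in Vehicle and 1895 to 1911 with anti–IL-17A.

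Markers of other cells also moved in ATMs, and their part was not tested. For the counts below, 12.5% of all ATM genes were called higher and 22.9% lower in Vehicle vs WT. Monocyte and macrophage markers summed to 4093 to 4294 CPM in WT, 2514 to 2669 in Vehicle, 8811 to 9132 with the GLP-1R agonist, 13652 to 13893 with anti–IL-17A and 11418 to 11432 in Combo. For Vehicle vs WT in ATMs, 4 genes were called higher and 5 lower of 11 monocyte and macrophage markers, 0 and 6 of 9 T cell genes, 0 and 6 of 8 B cell genes, 6 and 0 of 9 mast cell and basophil genes, 3 and 2 of 10 stem and progenitor genes, 1 and 3 of 10 genes of erythroblast-nursing macrophages, and 2 and 1 of 12 megakaryocyte and platelet genes. Of further red cell genes, 5 were higher and 6 lower of 21 heme genes, 4 and 3 of 18 iron genes, 5 and 5 of 21 membrane genes, 2 and 1 of 22 transcription factors, 3 and 1 of 17 genes of erythropoietin signaling, 4 and 2 of 26 late maturation genes and 2 and 0 of 2 embryonic and minor globin genes.

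The difference of Vehicle vs WT between the tissues was fitted as an interaction over all 30 libraries and the 13076 genes in both tables. Of the 28 members, 15 differed between ATMs and BM with an adjusted p below 0.05 and a difference above 1, as did 28.7% of all genes. *Bpgm* was −1.52 in BM and 1.09 in ATMs, a difference of 2.61 (adjusted p = 2.37e-22), and *Alas2* −0.92 and 0.76, a difference of 1.67 (adjusted p = 7.5e-23). *Epb42* was −2.18 in BM and 2.44 in ATMs, a difference of 4.64 (adjusted p = 3.06e-08). For these 3 genes, Vehicle was below WT in BM and above it in ATMs, where the donor and recipient of the WT libraries are uncertain.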

How the data were processed

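Reads had been aligned by the authors with STAR 2.7.2a (mm10) and summed to counts per gene with featureCounts 2.0.1 (GENCODE M22). Strand was ignored, the mapping quality was 10 or more, and a read on several genes was counted for each. The deposited values are raw counts, 1 table per tissue, in which no gene has a total below 54. *Epb42* was found by its older symbol. Members and lists were chosen with earlier results of these data known.

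Tests were two-sided quasi-likelihood tests of edgeR 4.0.16 (R 4.3.3) with TMM scaling, in a robust fit per tissue over its 15 libraries. The fold limit and false discovery rate are those of the study's methods, and the low-count filter removed 0 genes. Depth was at least 24876074 counts per library. The test was checked on simulated counts. Alternatives were DESeq2 1.42.0, its size factors in edgeR, no scaling, scaling without members and globin genes, other count filters, no fold limit, only the 6 libraries compared, a replicate block, leaving out each library, and limma 3.58.1 (voom) between tissues.

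Values of every library are given for *Alas2*, *Tfrc*, *Gata1*, *Klf1*, *Epor* and the 8 other members with the widest range in BM, and in ATMs for the 5 members with the most counts and every member called in a main comparison. For other lists, up to 2 genes called in each direction in Vehicle vs WT are named. Further genes of these lists, *Hbq1b* among them, were named after their values were seen. Some genes of these lists are not reported here.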

Additional observations from a re-analysis of the deposited data

Results flagged for a closer look

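The difference between ATMs and BM in Vehicle vs WT, on the log2 scale, was called in the interaction test of edgeR (adjusted p below 0.05 and a difference above 1) for 15 members and 28.7% of all genes. The donor and recipient of the ATM WT libraries are uncertain. The log2 fold change, not the level, was higher in ATMs than in BM for *Nfe2* (5.22), *Epb42* (4.64), *Bpgm* (2.61), *Trim10* (2.25), *Rhag* (1.96), *Tmcc2* (1.92), *Klf1* (1.68), *Alas2* (1.67), *Rhd* (1.36), *Tspo2* (1.25), *Slc25a38* (1.16) and *Slc4a1* (1.13). The log2 fold change was lower in ATMs than in BM for *Sptb* (−2.53), *Epor* (−1.62) and *Cpox* (−1.15). With limma voom and a variance per tissue, 12 of the 15 kept their call, and *Rhd* (adjusted p = 0.0711), *Klf1* (adjusted p = 0.106) and *Rhag* (adjusted p = 0.23) lost it. *Fech* (−0.01) and *Tfrc* (0.04) did not pass.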

How the results depend on the processing

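Without scaling beyond the library total, the median of all genes moved in BM to −0.141 (Vehicle vs WT), 0.244 (GLP-1R agonist vs Vehicle), 0.178 (anti–IL-17A vs Vehicle), −0.001 (Combo vs Vehicle) and −0.173 (Combo vs WT), and in ATMs to −0.653, 0.41, 0.516, 0.412 and −0.139. Members turned sign with it where their difference was small, namely *Ppox* (−0.03) and *Gata1* (−0.09) in Vehicle vs WT, *Rhag* with anti–IL-17A (0.11), *Slc25a37* (−0.09), *Cpox* (−0.08) and *Fech* (−0.05) in Combo vs WT, *Nfe2* in Combo vs the GLP-1R agonist (−0.03), Combo vs anti–IL-17A (−0.03) and between the single agents (0.00) in BM, and *Alas2* in Combo vs Vehicle (0.07) in ATMs. It also called 10 members for anti–IL-17A vs Vehicle in BM. Without the fold limit, BM called 22, 28, 26, 26 and 25 members in the same order of comparisons, and ATMs 19 for Vehicle vs WT and 21 for Combo vs Vehicle, since more genes qualify by construction. Leaving out each library gave 6 to 6, 14 to 15, 6 to 7, 2 to 3 and 2 to 3 members called in BM, and 10 to 12, 6 to 12, 13 to 14, 10 to 13 and 10 to 10 in ATMs. With the replicate block, 6, 14, 6, 2 and 2 members were called in BM and 11, 10, 14, 12 and 10 in ATMs. Same-numbered libraries did not deviate together (r from −0.03 to 0.05 in BM and −0.02 to 0.04 in ATMs), so the numbers do not pair them. Over the pairwise comparisons, under the alternatives other than no fold limit and voom, 2899 member values in BM kept direction and side of the threshold. A further 32 came to pass it and 9 turned. In ATMs 2769 kept both, 59 came to pass, 41 no longer passed and 1 turned. At least 10 counts in every library were reached by 28 members in BM and 21 in ATMs.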
